A study of Rattus norvegicus with 22 samples.

Results

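Markers of the liver endothelium were followed in rat liver RNA: Stab1, Stab2, Lyve1, Pecam1, Kdr, Tek, Fcgr2b, Clec4g, Eng and Cdh5. These 10 genes are textbook markers of liver endothelial cells, and the list was drawn up with earlier results of these data known. A row with the symbol was found for 9 of them among the 14971 genes listed, and Pecam1, for which no row was found, was not analysed here. All 9 had a mean of at least 10 normalised counts and so stood among the 12424 genes tested.

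The study compared 22 liver RNA-seq libraries in 4 groups, which differ in surgery and in inhaled gas. Each library is written of here as 1 rat, although the titles number replicates without naming animals. Every rat had either sham surgery or hepatic vagotomy, the cutting of the vagal branch to the liver, at 12 weeks of age and recovered for 5 to 6 days. They then breathed air, or 1 ppm ozone, 4 hours a day on 1 or 2 days, and the liver was taken within 2 hours of the end. The groups were sham air (5 rats), sham ozone (6 rats), vagotomised air (6 rats) and vagotomised ozone (5 rats). All 4 groups had surgery of some kind, so none is an unoperated liver. Strain, sex and the number of exposure days of each rat are not in the labels, and no fit takes them into account.

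Liver sinusoids are lined by a fenestrated endothelium without an ordinary basement membrane, which passes plasma to the hepatocytes and clears waste molecules, immune complexes and hyaluronan from the blood. Its scavenger receptors are the stabilins Stab1 and Stab2, the lectin Clec4g and the inhibitory Fc gamma receptor Fcgr2b. Lyve1, a hyaluronan receptor, marks sinusoid lining of the middle of the lobule as well as lymphatic vessels, while Kdr (the VEGF receptor VEGFR2), Tek (the angiopoietin receptor TIE2), Eng (the TGF-beta co-receptor endoglin) and Cdh5 (VE-cadherin, of the cell junctions) are found on endothelium in general. Stab1, Lyve1 and Fcgr2b are also made by some macrophages.

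The values are normalised counts, read counts divided by 1 size factor per library, and the libraries held 14098863 to 21141337 reads. The row 5_8S_rRNA was under 200 normalised counts in 4 libraries, vagotomised air replicates 1 and 5, sham ozone replicate 3 and vagotomised ozone replicate 1. These stood apart in several markers, and results are given with them (22 libraries) and without them (18 libraries). With all libraries, the summed markers of each other liver cell type overlapped between all 4 groups. The 11 macrophage markers summed to 7458 to 9246 in sham air, 6380 to 9833 in sham ozone, 6509 to 10810 in vagotomised air and 6124 to 12820 in vagotomised ozone. The 9 stellate cell markers measured summed to 4668 to 8062, 3548 to 6441, 4557 to 7613 and 3555 to 8145, respectively. Among the other 18 libraries some sums no longer overlapped. The stellate sum was then 5601 to 7613 in vagotomised air and 3555 to 5403 in vagotomised ozone. The sum of 6 bile duct markers was 152 to 169 in vagotomised ozone, against 173 to 213 in vagotomised air and 172 to 258 in sham ozone. The 4 lymphatic markers summed to 1694 to 3163 in sham air and 3424 to 4558 in sham ozone. Most of this sum is Prox1, which hepatocytes also express, with a mean of 2896 over the 22 libraries. Flt4 averaged 220, Ccl21 34.3 and Pdpn 7.41. With all libraries the mean of Flt4 was 236 in sham air and 230 in sham ozone, so the sum does not stand for lymphatic vessels. The 4 mesothelial markers summed to 152 to 188 in vagotomised air and 50.1 to 149.6 in sham ozone. The part of these cell types in the endothelial results was not tested. None of the macrophage or stellate markers was at 0 in any library, while T and NK cell markers summed to at most 48.1. In bulk liver, fewer cells of a type and less RNA per cell cannot be told apart.

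Stab1 and Stab2 varied most closely together between rats, and Lyve1 was the marker called higher with ozone, in vagotomised rats only. The sequence around the start sites of these 3 genes is therefore shown first. The windows, from RefSeq on the build GRCr8, run from 250 bases before to 50 bases after each start, 5′ to 3′ along the gene. They are not on rn6, the build of the reads. Capitals mark GGAAG or its reverse complement CTTCC, the core bound by ETS factors, which act in endothelial genes, and AGAACA or its reverse complement TGTTCT, a half-site of the glucocorticoid receptor.
Stab1 (chr16:6367310-6367609, minus strand): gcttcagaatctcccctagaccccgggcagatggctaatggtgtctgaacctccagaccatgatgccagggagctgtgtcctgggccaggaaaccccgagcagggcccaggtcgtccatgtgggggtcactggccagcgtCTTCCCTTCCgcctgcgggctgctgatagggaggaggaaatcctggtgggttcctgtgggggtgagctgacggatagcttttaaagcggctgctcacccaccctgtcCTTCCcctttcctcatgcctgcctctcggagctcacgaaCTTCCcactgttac
Stab2 (chr7:23320513-23320812, minus strand): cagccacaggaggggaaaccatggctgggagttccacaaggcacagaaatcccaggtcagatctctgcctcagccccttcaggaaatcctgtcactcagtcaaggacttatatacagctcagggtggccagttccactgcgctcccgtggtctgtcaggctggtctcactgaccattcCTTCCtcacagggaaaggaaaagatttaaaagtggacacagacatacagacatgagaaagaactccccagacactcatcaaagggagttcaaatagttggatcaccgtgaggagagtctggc
Lyve1 (chr1:174410928-174411227, minus strand): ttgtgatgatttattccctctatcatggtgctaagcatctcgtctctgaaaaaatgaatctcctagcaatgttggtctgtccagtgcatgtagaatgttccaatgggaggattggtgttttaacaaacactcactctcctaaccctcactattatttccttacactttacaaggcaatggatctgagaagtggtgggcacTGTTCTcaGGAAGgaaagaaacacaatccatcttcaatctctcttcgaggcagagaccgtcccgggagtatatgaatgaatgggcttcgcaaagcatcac
Windows were found for 6 of the 10 markers, Stab1, Stab2, Lyve1, Kdr, Clec4g and Eng. The ETS core was in 6 of 6, on either strand, against 70.1% of all 33469 windows of this length. The half-site was in 1 of 6, Lyve1, against 20.7% of all windows. In the Lyve1 window it begins 50 bases before the start and the ETS core 42 bases before it. The Lyve1 window also has the lowest GC content of the 3 printed, 43.3%, with 51.7% in Stab2 and 61% in Stab1, beside a median of 51.7% over all windows. These matches describe letters in a window and do not show that a factor binds there.

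Ozone against air asks what inhaled ozone does to the liver, first with the vagal branch in place. In sham rats Fcgr2b and Tek fell and no marker rose past the threshold, an adjusted p under 0.05 from limma over all genes tested. Thus 2 of 9 markers were called, 22.2%, both lower. Of all genes tested 28.4% were called in this comparison, 13.8% as lower, and with 9 markers each gene is 11.1% of the count, so 2 called lies near both shares. The median log2 change of the 9 was -0.30, against 0.01 over all genes, and 7 of 9 estimates were below 0, while 50.8% of all genes were above 0. The markers vary together between rats, so their signs are not 9 separate results. Fold changes are on the scale of log2(normalised count + 1).

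Fcgr2b, the inhibitory Fc receptor by which sinusoids remove immune complexes, read 1325, 1440.5, 1292, 1513 and 1428 normalised counts in the 5 sham air rats. In the 6 sham ozone rats it ran from 835 through a median of 1032 to 1435. All but 1 of the ozone rats, 5 of 6, were below the lowest air rat, and replicate 6 at 1435 lay within the air range. The log2 change was -0.40 ± 0.13 (SE), a fall of 24.1% with a 95% interval from -36.8% to -8.76%, adjusted p = 0.0228, and it was -0.39 (adjusted p = 0.0275) without the libraries low in 5.8S. Leaving out 1 library ended the call in 3 cases, with adjusted p = 0.0574 without sham air replicate 4, 0.0512 without sham ozone replicate 2 and 0.0598 without sham ozone replicate 4. Reads shared with other Fc gamma receptor genes could have been divided between rows when the authors counted, which makes this row less certain.

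Tek, the receptor of the angiopoietins, read 295, 427, 387, 421 and 366.4 in sham air. In sham ozone it ran from 222 through 282 to 414. The groups overlapped, with 3 of 6 ozone rats below the lowest air rat, which stood at 295, well below the others. Its change was -0.38 ± 0.14 (95% interval -0.67 to -0.09), adjusted p = 0.0472, close to the threshold. The call was lost without the libraries low in 5.8S (-0.40, adjusted p = 0.0505). It was also lost in 13 of 22 fits that each left out 1 library. These were sham air 2, 3, 4 and 5, sham ozone 2, 4 and 5, vagotomised air 1, 2 and 4, and vagotomised ozone 2, 3 and 4, with adjusted p from 0.0517 to 0.114.

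Eng and Cdh5, a co-receptor of the BMP and TGF-beta family and the cadherin of endothelial junctions, had estimates of like size that did not pass. Eng read 1019.7, 911, 943, 962 and 1133 in sham air and 655 through 776 to 1018 in sham ozone, where 4 of 6 rats were below the lowest air rat. Its change was -0.30 ± 0.12, adjusted p = 0.0586. Sham ozone replicate 3, low in 5.8S, held the 1018, and without the libraries low in 5.8S Eng fell by 0.36, adjusted p = 0.00649. It also passed without sham ozone replicate 3 alone (0.0173), sham ozone replicate 6 (0.0358), vagotomised air replicate 5 (0.0386) or vagotomised air replicate 3 (0.0483). Cdh5 read 249.8, 351, 345, 344 and 379.8 in sham air and 209 through 240.0 to 339 in sham ozone. All 6 ozone rats were below the median of the air rats and 3 of 6 were below the lowest. The change was -0.41 ± 0.17, adjusted p = 0.0737, and it passed without sham air replicate 1 (0.0310) or sham ozone replicate 6 (0.0321).

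The stabilins, receptors that take up hyaluronan and other waste from the blood, gave negative estimates in sham rats that did not pass. Stab1 read 112, 143, 146, 144 and 151 in sham air and 81.9 through 111 to 147 in sham ozone. The log2 change was -0.35 ± 0.18, adjusted p = 0.163, and without the libraries low in 5.8S it was -0.41, adjusted p = 0.0447, a call. Stab2 read 463, 543, 529.6, 533 and 550.1 in sham air and 331 through 441 to 605 in sham ozone. Ozone rats lay on both sides of the air range, 3 below it and 2 above it, and the change was -0.24 ± 0.17, adjusted p = 0.326. Without the 4 libraries, 3 of 9 markers were called, Stab1, Fcgr2b and Eng, all lower, beside 35.8% of all genes.

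Of the markers with an estimate above 0, Lyve1 and Clec4g, Lyve1 had the larger, and it did not pass. It read 443, 463, 476, 506 and 554 in sham air and 631, 499, 635, 379, 596 and 747 in sham ozone. Of the ozone rats 4 of 6 were above the highest air rat and replicate 4, at 379, was below the lowest. The estimate was 0.22 ± 0.14 (95% interval -0.07 to 0.51), adjusted p = 0.248, and without sham ozone replicate 4 it was 0.34, adjusted p = 0.0416. Kdr and Clec4g had the smallest estimates. Kdr, the main VEGF receptor of endothelium, was 1729 ± 162 (SD, n = 5) in sham air and 1641 ± 261 (n = 6) in sham ozone, a change of -0.08 ± 0.11 with a 95% interval from -0.31 to 0.14. Clec4g, a lectin of the sinusoid lining, was 856 ± 164 and 880.4 ± 113, a change of 0.05 ± 0.14 with an interval from -0.24 to 0.34.

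**Figure D1:**
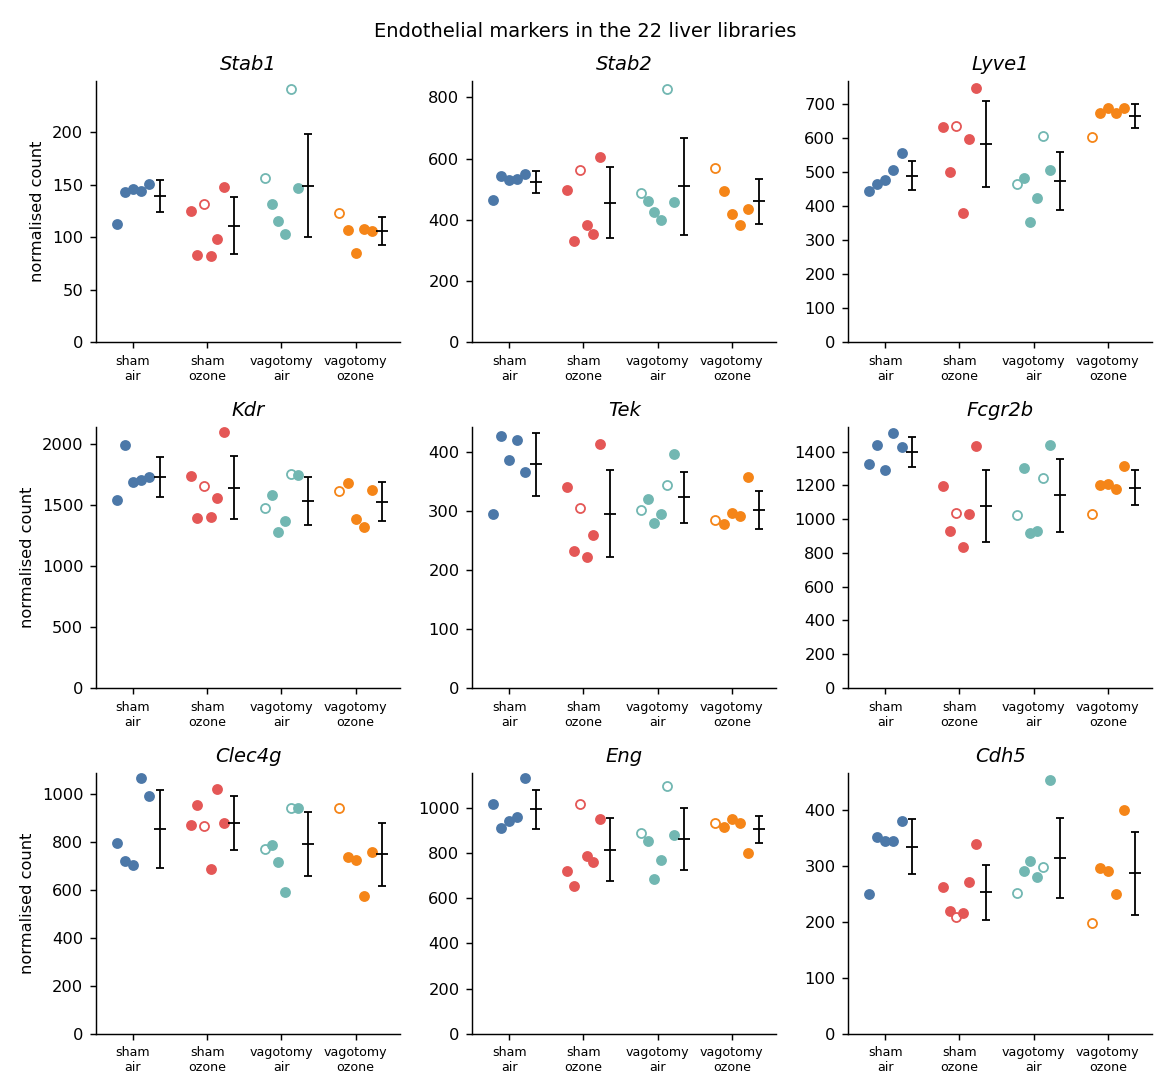
Normalised counts (y axis, from 0) of the 9 endothelial markers in the 22 libraries by group (x axis), with the mean and SD of each group beside its points; open points are the 4 libraries low in 5.8S. Lyve1 lies between 604 and 689 in vagotomised ozone against 352 to 605 in vagotomised air, and 5 of 6 sham ozone points of Fcgr2b lie below all sham air points.

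In vagotomised rats Lyve1 rose with ozone and no marker fell past the threshold. This is 1 of 9 markers called, 11.1%, beside 21.1% of all genes tested, of which 11.4% were called higher. The median change of the 9 was -0.08, against -0.01 over all genes, and the median size of a change, without its sign, was 0.09 for the markers and 0.23 for all genes.

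Lyve1, the hyaluronan receptor, read 464, 483, 352, 423, 605 and 505 in vagotomised air. In vagotomised ozone it read 604, 674, 686, 672 and 689. Of the ozone rats 4 of 5 were above every air rat, and the overlap came from vagotomised air replicate 5 at 605 and vagotomised ozone replicate 1 at 604, both low in 5.8S. The log2 change was 0.51 ± 0.14 (95% interval 0.22 to 0.80), a rise of 42.5% with an interval from 16.7% to 74.0%, adjusted p = 0.0107. Without the libraries low in 5.8S it was 0.64, adjusted p = 0.00496, and Lyve1 was again the 1 marker called, beside 22.6% of all genes. The call was kept in all 22 fits that left out 1 library and in all 12 other settings, with adjusted p up to 0.0301.

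The stabilins did not rise with Lyve1. Stab1 read 103 through 139 to 241 in vagotomised air and 123, 107, 84.9, 108 and 106 in vagotomised ozone. All 5 ozone rats were below the median of the air rats, and the highest air value, 241, was that of replicate 5, low in 5.8S. The change was -0.45 ± 0.18, adjusted p = 0.0907, and -0.28, adjusted p = 0.262, without the libraries low in 5.8S, while it passed without vagotomised air replicate 4 (0.0439). Stab2 ran from 399.8 through 459 to 828 in vagotomised air and read 570.3, 494, 419, 382 and 435 in vagotomised ozone. Its change was -0.11 ± 0.17, adjusted p = 0.698, and -0.01 without those libraries.

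The other receptors and the junction gene had estimates between -0.14 and 0.08 in these rats, none of them called. Fcgr2b ran from 919 through 1135 to 1439 in vagotomised air and read 1032, 1201, 1207, 1179 and 1316 in vagotomised ozone. Every ozone value was within the air range, and the change was 0.07 ± 0.13 (95% interval -0.19 to 0.34). Kdr changed by -0.00 ± 0.11 (interval -0.23 to 0.22), Tek by -0.09 ± 0.14 (-0.39 to 0.20), Clec4g by -0.08 ± 0.14 (-0.37 to 0.21), Eng by 0.08 ± 0.12 (-0.15 to 0.32) and Cdh5 by -0.14 ± 0.17 (-0.49 to 0.21). Adjusted p-values of these were 0.613 or higher.

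**Figure D2:**
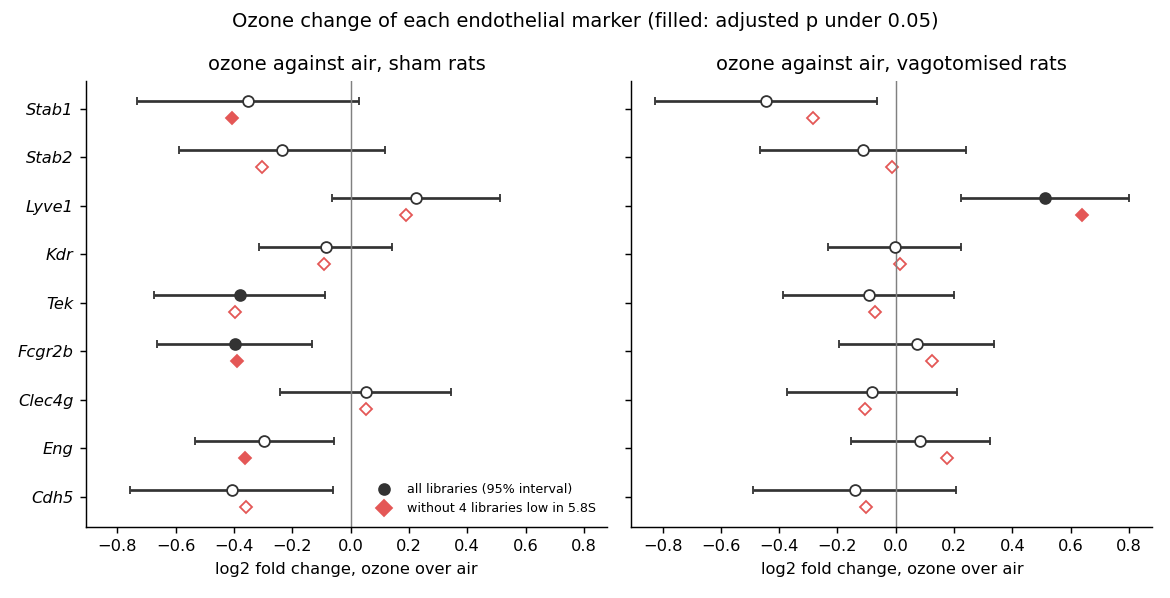
Log2 fold change of ozone over air (x axis) for each endothelial marker (y axis) in sham rats (left) and vagotomised rats (right); circles with 95% intervals are from all 22 libraries, diamonds from the 18 without the libraries low in 5.8S, and filled symbols have an adjusted p under 0.05. In sham rats 7 of 9 circles lie left of 0, with Fcgr2b at -0.40, and Lyve1 at 0.51 in vagotomised rats is the only filled circle on the right.

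Whether the ozone change itself differs with the vagal branch cut was tested as the difference of both changes. No marker was called, 0 of 9, and 0% of all genes tested were called in this test by limma, with 0 genes by edgeR and 20 by DESeq2. At an unadjusted p under 0.05 there were 2 of 9 markers and 1147 genes, 9.23% of those tested. These 2 were Fcgr2b, with a difference (vagotomised minus sham) of 0.47 ± 0.18 (95% interval 0.09 to 0.84, adjusted p = 0.447), and Eng, with 0.38 ± 0.16 (adjusted p = 0.5004). For Lyve1 the difference was 0.29 ± 0.20, adjusted p = 0.706. Over the other 18 libraries there were 0 of 9 called, beside 0% of all genes, and 3 of 9 at an unadjusted p under 0.05, beside 12.1%. These 3 were Fcgr2b (0.51, adjusted p = 0.326), Eng (0.54, adjusted p = 0.181) and Lyve1 (0.45, adjusted p = 0.390). The fall of Fcgr2b in sham rats and the rise of Lyve1 in vagotomised rats are therefore not shown to be limited to either surgery.

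Vagotomy against sham surgery, under air, asks what cutting the vagal branch adds to sham surgery, without ozone. No marker passed, 0 of 9, and 0% of all genes tested did, by limma and likewise 0 genes by edgeR and by DESeq2. At an unadjusted p under 0.05 there were 1 of 9 markers and 387 genes, 3.11% of those tested. Fcgr2b read 1399.7 ± 90.1 (SD, n = 5) in sham air and 1143 ± 216 (n = 6) in vagotomised air, with 4 of 6 vagotomised rats below the lowest sham rat. Its estimate was -0.31 ± 0.13, unadjusted p = 0.0234, and the adjusted p was 0.9995. Eng stood at 994 ± 87.3 and 862 ± 138, with 5 of 6 vagotomised rats below the lowest sham rat, and its estimate was -0.21 ± 0.12. Of the 9 estimates 8 were below 0, with a median of -0.11, while 49.3% of all genes were above 0. Without the libraries low in 5.8S 0 of 9 were called, beside 0% of all genes, and 2 of 9 had an unadjusted p under 0.05, beside 6.05%. All 9 estimates were then below 0, while 51.9% of all genes were above 0. Since the markers vary together, these signs are not 9 separate results. The median was -0.22, with -0.31 for Fcgr2b (adjusted p = 0.800), -0.32 for Eng (adjusted p = 0.692) and -0.27 for Stab2, which had been -0.08 with all libraries. These estimates use the sham air rats that the ozone comparison in sham rats uses too, so the comparisons are not separate evidence.

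Vagotomised against sham rats, both under ozone, gave 0 of 9 markers called, beside 1.34% of all genes tested, and no marker had an unadjusted p under 0.05, beside 15% of all genes. Estimates ran from -0.24 ± 0.14 for Clec4g (adjusted p = 0.447) to 0.22 ± 0.14 for Lyve1 (adjusted p = 0.483). Without the libraries low in 5.8S 0 of 9 were called, beside 2.19% of all genes, and 2 of 9 had an unadjusted p under 0.05, beside 18.6%. These were Clec4g (-0.33, adjusted p = 0.226) and Eng (0.22, adjusted p = 0.255). Lyve1 was 581 ± 127 (SD, n = 6) in sham ozone and 665 ± 35.0 (n = 5) in vagotomised ozone. Its spread was wider in the sham ozone rats, from 379 to 747, and the vagotomised ozone rats, from 604 to 689, all lay within it.

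The balance between markers within a library was described with ratios chosen after the values were seen, and no test is given. Because both genes of a ratio come from the same library, its size factor cancels, but the ratio is no comparison of transcript numbers, since the genes differ in length. Lyve1 over Stab2 was 0.852 to 1.01 in sham air and 0.731 to 1.11 in vagotomised air. Under ozone it was 0.987 to 1.68 in sham rats and 1.06 to 1.76 in vagotomised rats. The air groups thus lay together and the ozone groups reached higher, with an overlap at the lower end. In vagotomised rats without the libraries low in 5.8S the ranges were apart, 0.830 to 1.11 under air and 1.36 to 1.76 under ozone.

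**Figure D3:**
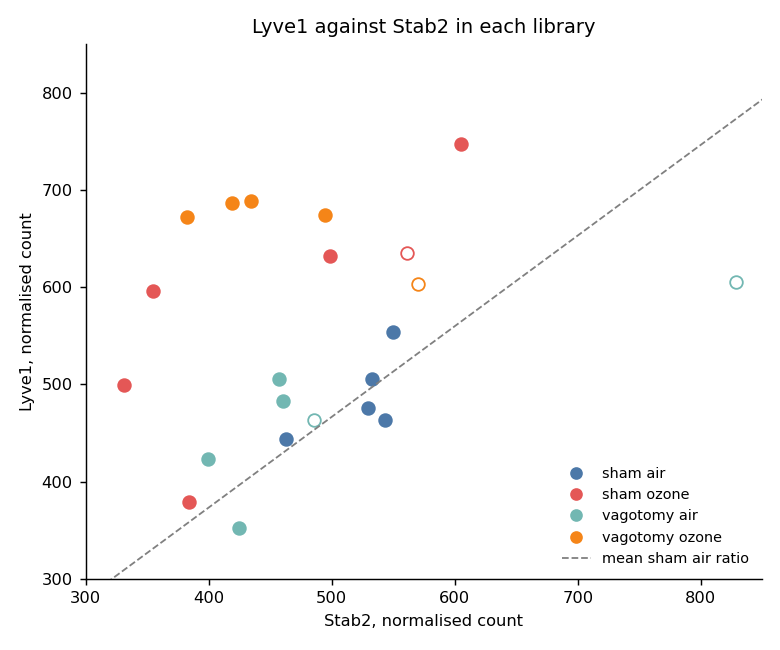
Lyve1 (y axis) against Stab2 (x axis) in each of the 22 libraries, both in normalised counts on axes that start at 300; colours are the groups, open points the libraries low in 5.8S, and the dashed line the mean sham air ratio, 0.933. Each ozone library lies above the line, with ratios of 0.987 or more, and the air libraries lie on both sides of it, vagotomised air replicate 5 farthest below at a Stab2 of 828.

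Of the summed counts of the 9 markers, Lyve1 held 7.14% ± 0.364 (SD, n = 5) in sham air and 9.43% ± 0.929 (n = 6) in sham ozone. In vagotomised rats it held 7.73% ± 0.529 (n = 6) under air and 10.8% ± 0.839 (n = 5) under ozone. Fcgr2b went from 20.5% ± 0.709 in sham air to 17.5% ± 1.09 in sham ozone, and stood at 18.7% ± 1.68 and 19.2% ± 1.73 in the vagotomised groups. Fcgr2b over Kdr was 0.724 to 0.889 in sham air and 0.595 to 0.689 in sham ozone, ranges that did not overlap, while in vagotomised rats 0.681 to 0.825 under air and 0.640 to 0.893 under ozone did. The sum of all 9 markers overlapped between groups, with medians of 6988 in sham air, 6168 in sham ozone, 6010.1 in vagotomised air and 6301 in vagotomised ozone.

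The markers varied together between rats of a group. With the group means removed, Pearson's r over the 22 libraries was above 0 in 35 of 36 pairs, with a median of 0.56. Both genes of a pair share the library, its depth and its composition, so r is given as a description. The closest pair were the stabilins, at 0.91 (0.83 without the libraries low in 5.8S). Next came Tek with Fcgr2b at 0.84, and Kdr with Tek and Lyve1 with Fcgr2b at 0.81. Clec4g, Cdh5 and Eng followed the others least, with a mean r to the other markers of 0.35, 0.34 and 0.43. Over the 18 libraries not low in 5.8S Clec4g was again at 0.35 and Eng stood at 0.40, while Cdh5 was at 0.63. With all libraries Cdh5 was at 0.69 with Tek and with Fcgr2b, but at 0.06 with Stab2 and -0.04 with Eng. In 3 of those 4 libraries Cdh5 was below every other library of its group, at 252 in vagotomised air replicate 1, 209 in sham ozone replicate 3 and 197 in vagotomised ozone replicate 1.

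**Figure D4:**
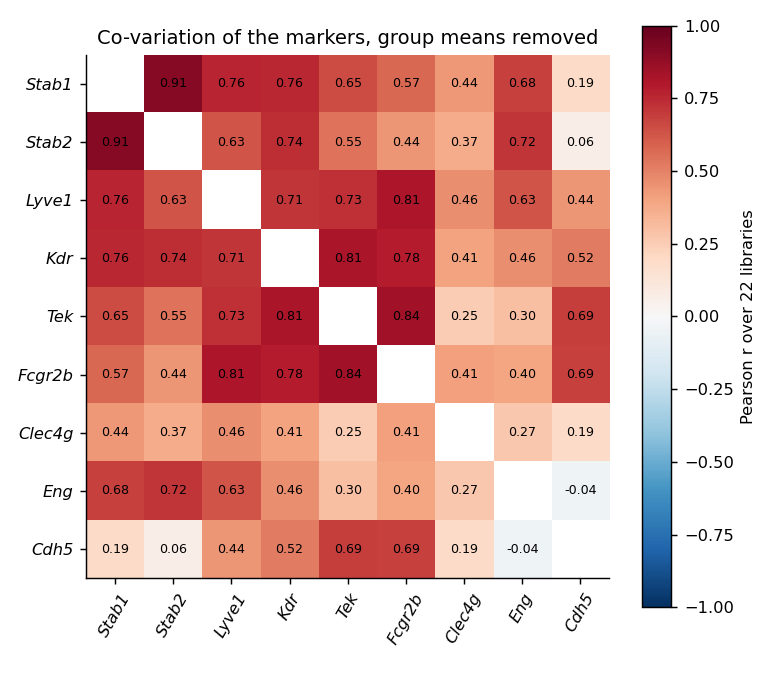
Pearson's r between endothelial markers (both axes) over the 22 libraries, on log2(normalised count + 1) with group means removed; red is positive, blue negative. Stab1 with Stab2 is the deepest red at 0.91, the row of Clec4g is pale throughout, at 0.46 or less, and that of Cdh5 runs from -0.04 with Eng to 0.69 with Tek and Fcgr2b.

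The spread also differed between markers. The residual SD of Kdr was 0.180 log2 units, lower than in all but 17.9% of genes tested, and that of Eng 0.189. The stabilins and Cdh5 varied most, at 0.317 for Stab1, 0.300 for Stab2 and 0.293 for Cdh5, near the middle of all genes. Outside the markers, the 8 genes with the highest mean r to them, over the same 22 libraries, were Pde2a (0.67), Clec14a (0.66), Flt1 (0.66), Dmbt1 (0.65), Stom (0.64), P3h2 (0.63), Sema6b (0.62) and Tie1 (0.61). Flt1 is a VEGF receptor, Tie1 the partner of Tek and Clec14a a lectin of the endothelial surface. Clec14a rose with ozone in sham rats (0.44 ± 0.13, adjusted p = 0.0169) and in vagotomised rats (0.51 ± 0.13, adjusted p = 0.00925). Flt1 and Tie1 gave estimates between -0.07 and 0.05 and did not pass.

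Other genes of the pathways around the markers were read from 10 lists with 101 genes tested. In sham rats 28 of them were called with ozone, 10 higher and 18 lower, 27.7% beside 28.4% of all genes. In vagotomised rats 18 were called, 8 higher and 10 lower, 17.8% beside 21.1%. Both shares lie near the background. In the 18 libraries not low in 5.8S 36 were called in sham rats, 11 higher and 25 lower, and 21 in vagotomised rats, 8 higher and 13 lower. Of all genes 35.8% were called there in sham rats, 19.1% higher and 16.8% lower. In vagotomised rats it was 22.6%, 12.3% higher and 10.2% lower. By direction, the share of all genes called higher or lower was 14.6% and 13.8% in sham rats and 11.4% and 9.63% in vagotomised rats, and the counts of each list below stand beside these shares. Many of these genes are also expressed by hepatocytes, which make up most of the liver.

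Among VEGF receptors and ligands, 3 of 8 fell in sham rats and 3 of 8 in vagotomised rats, with none higher. Without the libraries low in 5.8S it was 4 of 8 and 3 of 8, again with none higher. The semaphorin receptor Plxnd1 fell in both, from 313 ± 24.6 (SD, n = 5) to 159 ± 23.6 (n = 6) in sham rats (-0.99 ± 0.17, adjusted p = 0.000102) and from 300.4 ± 78.8 to 156 ± 38.5 in vagotomised rats (-0.93 ± 0.17, adjusted p = 0.000285). Nrp1, a co-receptor of Kdr, fell by 0.85 ± 0.16 (adjusted p = 0.000374) and by 0.67 ± 0.16 (adjusted p = 0.00443). Nrp2, its relative, fell in sham rats (-0.77 ± 0.12, adjusted p = 5.93e-05), and the ligand Vegfa fell in vagotomised rats (-0.60 ± 0.15, adjusted p = 0.00696). The mean of Nrp2 in vagotomised rats went from 325 ± 53.8 (SD) to 269 ± 31.0. That of Vegfa in sham rats went from 2039 ± 105 to 1957 ± 547. Kdr itself did not pass in either.

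The angiopoietin list had 4 genes tested, of which Angpt2, a ligand of Tek, fell in sham rats (-1.05 ± 0.37, adjusted p = 0.0343). That call was lost without sham air replicate 1 (0.0585), 4 (0.0855) or 5 (0.111), and without sham ozone replicate 1 (0.0536) or 2 (0.0894). It was also lost with only the groups compared (0.0608). Angpt2 lay near the minimum mean of 10, at 10.4 over all libraries, with 15.7 ± 7.27 (SD) in sham air and 6.92 ± 2.76 in sham ozone. In vagotomised rats none of the list passed, although the mean of Angpt2 also went down, from 12.4 ± 5.17 (SD) to 6.79 ± 2.81. The most abundant of the list, Ptprb, a phosphatase that acts on Tek, changed by 0.25 ± 0.24 there. In the branch around Eng, 13 genes were tested, and Tgfbr2, a TGF-beta receptor, fell in sham rats from 1254 ± 144 to 809 ± 137 (-0.64 ± 0.11, adjusted p = 7.89e-05) and in vagotomised rats from 1203 ± 59.7 to 691 ± 57.5 (-0.80 ± 0.11, adjusted p = 1.05e-05). Id1, a target of BMP signals, rose in sham rats (0.90 ± 0.21, adjusted p = 0.00244). In vagotomised rats, where Id1 was not called, its mean went from 36.7 ± 8.68 (SD) to 50.3 ± 10.0. Of the 13 genes 1 rose and 1 fell in sham rats, and 2 rose and 2 fell without the libraries low in 5.8S. In vagotomised rats 1 fell in either set of libraries. Of 7 Notch genes none was called in sham rats with all libraries, where the most abundant, Hes1, changed by 0.19 ± 0.19. Jag2, a ligand, fell in vagotomised rats (-1.05 ± 0.29, adjusted p = 0.0113). In the 18 libraries not low in 5.8S 1 of 7 was lower in sham rats, beside 16.8% of all genes. In vagotomised rats it was then 2 of 7, beside 10.2%. Jag2 also lay near the minimum mean, at 11.2 over all libraries, with 13.7 ± 4.30 (SD) in vagotomised air and 6.22 ± 2.52 in vagotomised ozone. It stood at 11.8 ± 4.00 in sham air and 12.5 ± 3.04 in sham ozone.

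Among 18 genes of endothelial junctions and surface, 3 rose and 4 fell in sham rats, and 3 rose and 2 fell in vagotomised rats. Without the libraries low in 5.8S 3 rose and 7 fell in sham rats, and 3 rose and 3 fell in vagotomised rats. Jam3, a junction adhesion molecule, rose in both (0.64 ± 0.11, adjusted p = 0.000194, and 0.47 ± 0.11, adjusted p = 0.00414), as did the adhesion receptor Adgrf5 (0.59 ± 0.15, adjusted p = 0.00504, and 0.76 ± 0.15, adjusted p = 0.000914). Tjp1, of tight junctions, fell in sham rats (-0.76 ± 0.15, adjusted p = 0.000724), and Ctnnb1, which binds Cdh5 at junctions, fell in vagotomised rats (-0.31 ± 0.08, adjusted p = 0.00694). Their means also went down in the other surgery group. Tjp1 went from 1153 ± 224 (SD) to 852 ± 93.0 in vagotomised rats, and Ctnnb1 from 1747 ± 147 to 1459 ± 92.6 in sham rats. Of 11 further scavenging receptors and their adaptors, Dab2, a clathrin adaptor, fell in sham rats (-0.52 ± 0.16, adjusted p = 0.0209), a call lost without sham air replicate 2 (0.0575), 3 (0.0565), 4 (0.0523) or 5 (0.0538) or sham ozone replicate 2 (0.0554). It was also lost with only the groups compared (0.0846). In vagotomised rats none of the 11 passed with all libraries, although the mean of Dab2 went from 67.5 ± 5.86 (SD) to 53.7 ± 1.64. The most abundant, Lrp1, a large endocytic receptor, changed by -0.22 ± 0.15 there. Without the libraries low in 5.8S 1 of the 11 was called higher in vagotomised rats, beside 12.3% of all genes.

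Of 17 transcription factors, 3 rose and 2 fell in sham rats, and 3 rose and 1 fell in vagotomised rats. Without the libraries low in 5.8S 3 rose and 2 fell in sham rats, and 1 rose and 1 fell in vagotomised rats. Maf, a factor of sinusoid identity, fell in sham rats from 238 ± 34.0 to 130.4 ± 24.9 (-0.87 ± 0.13, adjusted p = 2.06e-05) and in vagotomised rats from 235 ± 17.6 to 157 ± 13.3 (-0.58 ± 0.13, adjusted p = 0.00203). Foxo1, which also acts in hepatocytes, rose in sham rats (1.49 ± 0.30, adjusted p = 0.000641). Its mean also went up in vagotomised rats, from 841 ± 247 (SD) to 1344 ± 509.9. Epas1, the hypoxia factor HIF-2alpha, rose in sham rats (0.60 ± 0.14, adjusted p = 0.00203) and in vagotomised rats (0.44 ± 0.14, adjusted p = 0.0243). The second call was lost without the libraries low in 5.8S (0.0978) and without vagotomised air replicate 1 (0.0654) or vagotomised ozone replicate 2 (0.0670) or 3 (0.0701). Klf4, a factor that responds to flow, rose in vagotomised rats (0.64 ± 0.20, adjusted p = 0.0205), which was lost without the libraries low in 5.8S (0.106).

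Of 10 genes of flow and vessel tone, 2 rose and 4 fell in sham rats, and 1 rose and 2 fell in vagotomised rats. Without the libraries low in 5.8S 2 rose and 6 fell in sham rats, and 2 rose and 3 fell in vagotomised rats. Cav2, of the caveolae, fell from 493 ± 109 to 268 ± 54.5 in sham rats (-0.87 ± 0.14, adjusted p = 8.61e-05) and from 432 ± 36.6 to 254 ± 39.7 in vagotomised rats (-0.77 ± 0.14, adjusted p = 0.000494). The endothelin receptor Ednrb fell in both (-0.78 ± 0.18, adjusted p = 0.00266, and -0.66 ± 0.18, adjusted p = 0.0126), and Ece1, which makes active endothelin, rose in both (0.43 ± 0.09, adjusted p = 0.00134, and 0.41 ± 0.09, adjusted p = 0.00243). Of 7 genes of adhesion and activation, Icam1, which holds leukocytes at the vessel wall, rose from 399 ± 33.5 to 519 ± 57.4 in sham rats (0.38 ± 0.10, adjusted p = 0.00763) and from 384 ± 50.4 to 583 ± 55.1 in vagotomised rats (0.61 ± 0.10, adjusted p = 0.000166). With columns scaled to equal totals the sham call was lost (0.27, adjusted p = 0.0943). Cxcl16, a membrane-bound chemokine, fell in sham rats (-0.47 ± 0.17, adjusted p = 0.0367). That call was lost without sham air replicate 2, 3, 4 or 5 or sham ozone replicate 1, 2, 5 or 6, with adjusted p from 0.0511 to 0.111.

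Ligands that sinusoids send to hepatocytes gave 2 of 10 lower in sham rats, Angpt2, described above, and Rspo3, which feeds Wnt signalling around the central vein. Rspo3 fell by 0.49 ± 0.18 (adjusted p = 0.0416), a call lost without the libraries low in 5.8S (0.0602), without sham air replicate 3, 4 or 5, and without sham ozone replicate 1, 2 or 3, with adjusted p from 0.0629 to 0.146 when 1 library was left out. It was also lost with only the groups compared (0.0636). In vagotomised rats none of the 10 passed, and the most abundant, Hgf, the hepatocyte growth factor, changed by -0.19 ± 0.22. Without the libraries low in 5.8S it changed by -0.45 (adjusted p = 0.128). Hgf is also 1 of the 9 stellate cell markers, so it is counted in both lists. Of markers of other cell types, 2 of 11 for macrophages and 2 of 9 for stellate cells were called lower and 1 of 9 for stellate cells higher in sham rats. Without the libraries low in 5.8S 3 of 11 macrophage markers were lower, beside 16.8% of all genes, and the stellate counts were as before. Also in sham rats, 2 of 7 hepatocyte markers and 1 of 3 lymphatic markers were called higher and 1 of 4 mesothelial and 1 of 5 large vessel markers lower, with the same counts without those libraries. In vagotomised rats 0 of 11 macrophage and 0 of 9 stellate markers were called. In the 18 libraries not low in 5.8S 2 of 9 stellate markers were called lower there, beside 10.2% of all genes. The list median was -0.45, the value of Hgf. With all libraries 1 of 7 hepatocyte markers was higher and 1 of 7 lower in vagotomised rats, and 1 of 5 large vessel markers lower. Their part in the changes of the endothelial genes was not tested.

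**Figure D5:**
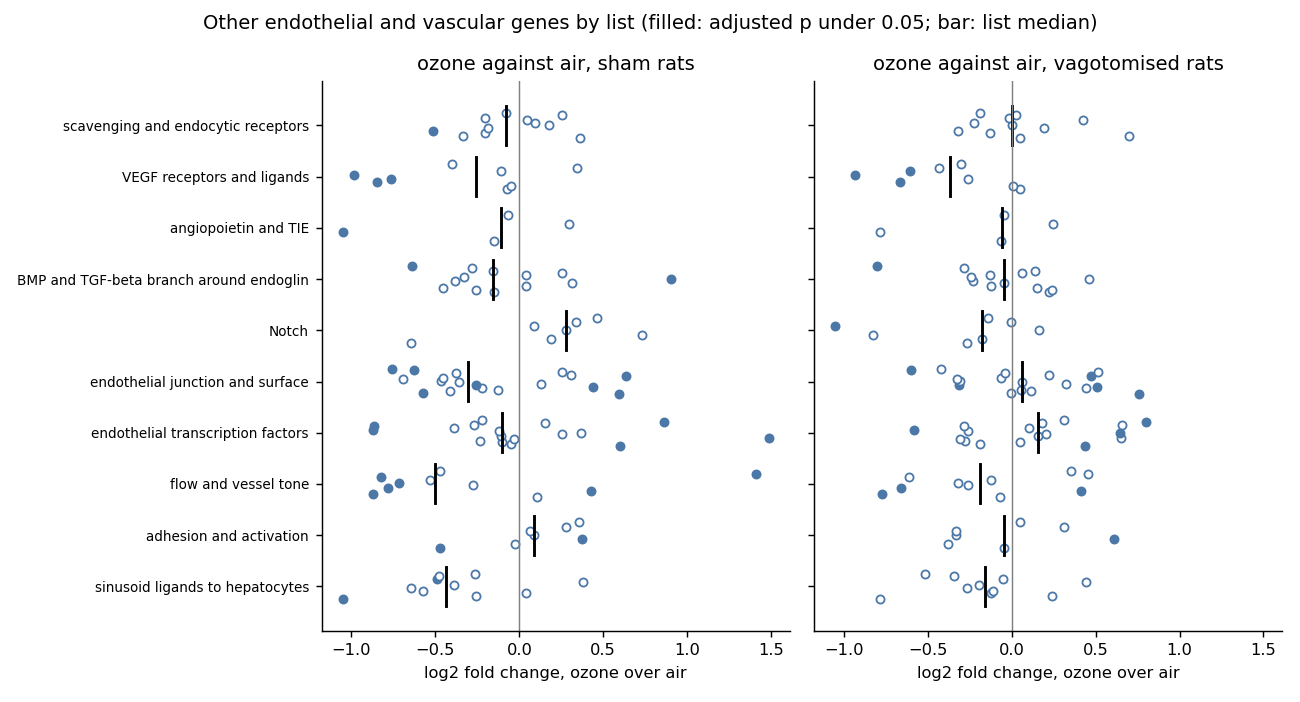
Log2 fold change of ozone over air (x axis) for each tested gene of the 10 vascular lists (y axis) in sham rats (left) and vagotomised rats (right); filled points have an adjusted p under 0.05 and black bars are list medians. VEGF receptors and ligands have 3 filled points on the left of 0 in each panel, and list medians lie between -0.50 and 0.28 in sham rats.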

How the data were processed

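RNA from 10 to 20 mg of liver was sequenced in 22 libraries in the 4 groups of the sample titles. The deposited table is a signal, read counts that the authors normalised by size factors. The submitters' processing notes name STAR, Partek, DESeq, DESeq2 and the build rn6, with no versions or order. The counter and the annotation are not given in the sources used here. In each of the 22 columns 100% of values were whole multiples of 1 step within 0.001, which gave back the read counts. On these edgeR with TMM called 3532 genes with ozone in sham rats and 2684 in vagotomised rats. Columns left out were 0.

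Values were analysed as log2(count + 1) for genes with a mean of at least 10, with limma 3.58.1 in R 4.3.3, 4 group means over 22 libraries, an intensity trend, two-sided tests and Benjamini-Hochberg adjustment over all genes tested, called under 0.05. The fit was tested on simulated data. Alternatives were other pseudocounts, minimum means and scalings, a replicate block, only the groups compared, no libraries under 200 in 5.8S, edgeR 4.0.16 and DESeq2 1.42.0 on recovered reads, and leaving out each library. Within groups, 50 pairs of libraries differed by more than counting noise (chi-square per degree of freedom of at least 9.75), so none was taken for 1 library deposited more than once. The titles number replicates without naming animals, and were any to share one, p-values would measure technical spread.

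All 10 markers are named. From each list up to 3 called genes with the smallest p in each ozone comparison are named, or the most abundant where none was called, and 8 genes by mean r to the markers. Markers and lists were chosen with earlier results of these data known.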

Additional observations from a re-analysis of the deposited data

Results flagged for a closer look

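Of 36 combinations of an endothelial marker and a group, 8 had a library whose gap to its nearest neighbour took up more of the group's range than Dixon's limit, which chance passes in about 1 of 20 groups. In sham air, replicate 1 was the lowest for Stab1 (112, next 143), Stab2 (463, next 529.6) and Cdh5 (249.8, next 344). In vagotomised air, replicate 5, low in 5.8S, was the highest for Stab2 (828, next 486), and replicate 6 was the highest for Cdh5 (454, next 308). In vagotomised ozone, replicate 1, low in 5.8S, was the lowest for Lyve1 (604, next 672). In the same group replicate 5 was the highest for Tek (358, next 296) and the lowest for Eng (802, next 914). The markers vary together between libraries, so these 8 are not 8 separate events.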

How the results depend on the processing

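The rise of Lyve1 in vagotomised rats was called under every setting run, with a log2 change from 0.43 to 0.64, and no call changed its direction. For single markers over the 5 comparisons, 943 of 990 values that left out 1 library and 511 of 531 under other settings kept their direction and their side of the threshold. Estimates changed sign in 23 of the 990 and 9 of the 531, none of these called, as for Clec4g with ozone in sham rats (-0.01 to 0.14 without 1 library), Stab2 with ozone in vagotomised rats (-0.19 to 0.04) and Stab1 with vagotomy under air (-0.10 to 0.14). Of the other named genes 27 of 836 and 7 of 452 values, respectively, lost their call. The 2 markers called in sham rats became 1 with no minimum mean, 1 with only the groups compared and 1 by edgeR with the submitters' size factors. They became 4 with columns scaled to equal totals and 4 with equal upper quartiles, where Eng and Cdh5 also fell. Of all 12424 genes tested 3540 were called with equal totals, 1200 of them higher, and 3660 with equal upper quartiles, 1438 of them higher. In the main fit it was 3526, with 1809 higher. The median change of all genes was then -0.09 with equal totals and -0.06 with equal upper quartiles, against 0.01. Leaving out 1 library gave 0 to 4 markers called, beside 2972 to 3649 of all genes. It was 0 without sham air replicate 4 or sham ozone replicate 2 and 4 without sham ozone replicate 6. The 1 marker called in vagotomised rats became 2 without vagotomised air replicate 4, a range of 1 to 2.

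Scaling to equal totals shifted the median of all genes in sham rats by -0.102, and 33.9% of called genes were then higher, against 51.3%. With equal upper quartiles it was 39.3%. Between the ozone groups the shift was 0.101, and 85.5% were higher, against 60.2%. There the 166 genes called became 14 with only the groups compared, 272 without the libraries low in 5.8S and 366.0 by DESeq2, and 19 to 217 without 1 library. The count was 20 and 19 without sham ozone replicates 1 and 2, and 25, 60, 76 and 21 without vagotomised ozone replicates 2, 3, 4 and 5. The difference of the ozone changes had 0 genes called, 20 by DESeq2 and 0 to 1 without 1 library, with 1 without sham air replicate 5, vagotomised air replicate 2 or sham ozone replicate 4. The fit with only the groups compared was not run for this difference, which needs all 4 groups. The cause of these shifts was not tested.

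The titles do not say whether replicate numbers pair rats across groups. Of 20 same-numbered pairs 6 had deviations correlated above 0.1, and over all 20 the correlation ran from -0.32 to 0.61. In 4 of the 20 the same-numbered library was the closest of its group. These correlations cannot settle whether same-numbered rats shared a day or batch. With the number as a replicate block, 3306 genes were called in sham rats, 2490 in vagotomised rats and 164 between the ozone groups, and 3 markers in sham rats. With 5 to 6 rats a group, a change of a marker could be missed, and the smallest detectable change was not worked out. A wholly negative interval did not ensure a call. In the main fit the interval of Eng in sham rats ran from -0.54 to -0.06, and that of Cdh5 from -0.76 to -0.06. For Stab1 in vagotomised rats it ran from -0.83 to -0.06. None of these was called.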
